A study of Mus musculus with 34 samples.

Results

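Min6, a beta cell line that derives from a mouse insulinoma, and aTC, an alpha cell line that derives from a mouse glucagonoma, were compared island by island. They are 2 of the 34 arrays of a series on CpG island methylation in mouse cells and were hybridised together on 1 slide, with 1 array a line and no replicate. DNA was fragmented and precipitated with an antibody to methylated cytosine (methylated DNA immunoprecipitation, mDIP), and the bound fraction, labelled with Cy5, was hybridised against input, labelled with Cy3, on an Agilent CpG island array. Each line was represented by 1 DNA sample, and the labels name no treatment. Both lines come from tumours of mice that carried a viral T antigen in their islet cells, so that neither stands for a normal cell. Ex vivo beta cells served as reference, on 1 array of another slide scanned on the same day. They had been sorted with antibodies to insulin from dissociated islets of mice 2 to 8 months old that carried a Pdx1-GFP transgene, and no ex vivo alpha cells were analysed here to set beside aTC. The other 31 arrays hold 8 adult tissues with 2 arrays each, 5 embryos, 8 ES cell cultures and 2 teratomas. The 5 embryos are of 5 different days of gestation, with 1 array a day and no replicate of a day. An SD over the embryo arrays therefore spans ages, and an SD over the adult arrays spans tissues. The 8 ES cell cultures are 3 undifferentiated lines, 1 of embryoid bodies, 1 treated with retinoic acid, 2 of endoderm and 1 of mesoderm. The members of the comparison are 13387 autosomal islands, which are runs of at least 3 probes with gaps of at most 500 bases, among 14900 runs in all. Chromosomes X and Y were dropped. For each island the Z-scores of its probes were averaged to an island methylation score (IMS), where a Z-score is the distance of a probe's log10 bound over input ratio from the mean of its array in units of that array's standard deviation. An IMS above 0.75 is called methylated and an IMS below 0 unmethylated. Each IMS is relative to its own array, so that a change of the whole genome would not appear, and an intermediate value does not tell partial methylation of all cells from full methylation of some. No test was possible with 1 array a line, and values, sizes and counts are given in their place.

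CpG islands are short stretches rich in the CpG dinucleotide, many of them at the starts of genes, and most stay unmethylated in normal tissue. Methylation of such an island usually goes with a silent gene. Alpha and beta cells are the main endocrine cells of the pancreatic islet, secrete glucagon and insulin, and descend from common endocrine progenitors. A set of transcription factors separates them: Pdx1, Nkx6-1, Mafa and Mnx1 act in beta cells, whereas Irx1 and Irx2 are found in alpha cells. Cell lines carry methylation of their own, acquired in the tumour and in culture, beside that of the cell they came from.

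At Pdx1, Mafa, Irx1 and Irx2 the line with the higher IMS was the one of the opposite cell type. This was not a rule for islet factors: Foxa1 held islands of both directions, and Neurod1, Pax6 and Isl1 were unmethylated in both lines. Of 64 islands of islet factors, 11 were at least 1 higher in Min6 and 9 in aTC. Both islands of Pdx1 were methylated in aTC and unmethylated in Min6, both islands of Irx1 and the 2 islands nearest the start of Irx2 were methylated in Min6 and unmethylated in aTC, and Mafa, higher in aTC, followed the same order. For 6 of the islet and epithelial genes described here, the 250 bases before the start of the gene are shown, because the islands that differed between the lines overlap these bases, adjoin them or begin just past them. They are from RefSeq, build GRCm38.p6, on the strand of the gene and from 5′ to 3′, and capitals mark CG, the dinucleotide whose cytosine is methylated. The first 3 belong to islands that were higher in Min6.
Irx2: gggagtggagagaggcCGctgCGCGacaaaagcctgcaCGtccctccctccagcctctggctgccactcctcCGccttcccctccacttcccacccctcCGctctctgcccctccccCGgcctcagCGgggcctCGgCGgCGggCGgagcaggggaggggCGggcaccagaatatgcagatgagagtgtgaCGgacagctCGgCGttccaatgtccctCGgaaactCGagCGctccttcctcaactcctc
Fev: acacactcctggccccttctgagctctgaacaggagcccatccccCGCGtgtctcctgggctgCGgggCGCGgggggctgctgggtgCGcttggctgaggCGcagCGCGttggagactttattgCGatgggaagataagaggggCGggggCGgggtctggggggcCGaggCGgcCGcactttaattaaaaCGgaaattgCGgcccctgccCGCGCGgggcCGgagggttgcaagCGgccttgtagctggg
Cryba2: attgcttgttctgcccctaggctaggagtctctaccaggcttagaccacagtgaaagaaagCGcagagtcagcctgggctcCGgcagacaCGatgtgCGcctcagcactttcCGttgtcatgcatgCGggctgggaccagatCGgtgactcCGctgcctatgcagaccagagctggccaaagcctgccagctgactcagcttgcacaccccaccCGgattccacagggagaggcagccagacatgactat
The other 3 belong to islands that were higher in aTC.
Pdx1: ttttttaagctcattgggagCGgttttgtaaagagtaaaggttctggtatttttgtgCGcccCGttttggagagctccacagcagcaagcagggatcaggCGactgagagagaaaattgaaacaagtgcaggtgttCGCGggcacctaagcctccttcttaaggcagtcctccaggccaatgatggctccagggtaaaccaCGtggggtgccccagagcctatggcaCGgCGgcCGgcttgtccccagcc
Mnx1: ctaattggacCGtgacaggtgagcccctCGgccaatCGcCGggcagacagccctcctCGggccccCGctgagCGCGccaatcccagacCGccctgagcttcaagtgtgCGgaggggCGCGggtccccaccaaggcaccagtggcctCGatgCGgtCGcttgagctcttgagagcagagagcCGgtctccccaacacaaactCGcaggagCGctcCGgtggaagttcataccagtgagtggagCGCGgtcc
Krt7: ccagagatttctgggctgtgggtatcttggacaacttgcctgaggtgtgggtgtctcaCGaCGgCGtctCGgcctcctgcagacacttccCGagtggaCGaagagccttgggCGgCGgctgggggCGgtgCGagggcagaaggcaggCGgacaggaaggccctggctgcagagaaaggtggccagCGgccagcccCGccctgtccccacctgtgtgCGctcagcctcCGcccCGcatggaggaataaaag
They lie at chr13:72628570-72628819 on the plus strand (Irx2), chr1:74885409-74885658 on the minus strand (Fev), chr1:74893144-74893393 on the minus strand (Cryba2), chr5:147269847-147270096 on the plus strand (Pdx1), chr5:29478471-29478720 on the minus strand (Mnx1) and chr15:101412153-101412402 on the plus strand (Krt7), all in GRCm38.p6. CG, which reads the same on both strands, occurs 19, 22, 9, 10, 21 and 16 times in them, in the same order. The median over the 32851 promoter windows of this length in the RefSeq table is 6, and 92.1% hold at least 1. Fev and Mnx1 are among the richer windows, with as many CG in 14.8% and 16.3% of all windows, whereas Cryba2 (40.3%) and Pdx1 (37.8%) are nearer the middle. Island positions in what follows are those of the line arrays in build mm9, which the file headers name, and distances are from the gene start as annotated on the array.

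The input channels of the line arrays were alike, the bound channels less so, and most islands had close scores. The median input signal was 4.91 times its local background on Min6 and 5.57 times on aTC, and the input was well above background at 98.1% and 98.4% of the probes. The bound signal was 2.60 and 3.58 times its background and well above it at 84.0% and 92.2% of the probes. The SD of the log10 ratio was 0.535 and 0.561, against 0.339 for ex vivo beta cells and 0.250 to 0.525 on the other 31 arrays. The mean IMS over all islands was 0.00465 in Min6 and -0.000391 in aTC, and the difference, Min6 minus aTC, had a median of 0.0727, quartiles of -0.159 and 0.238, and ran from -2.99 to 2.83. Both lines were below 0 at 7701 islands (57.5% of all) and above 0.75 at 2234 (16.7%). Of the islands above 0.75 there were 2663 in Min6, 3133 in aTC and 1624 in ex vivo beta cells.

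**Figure D1:**
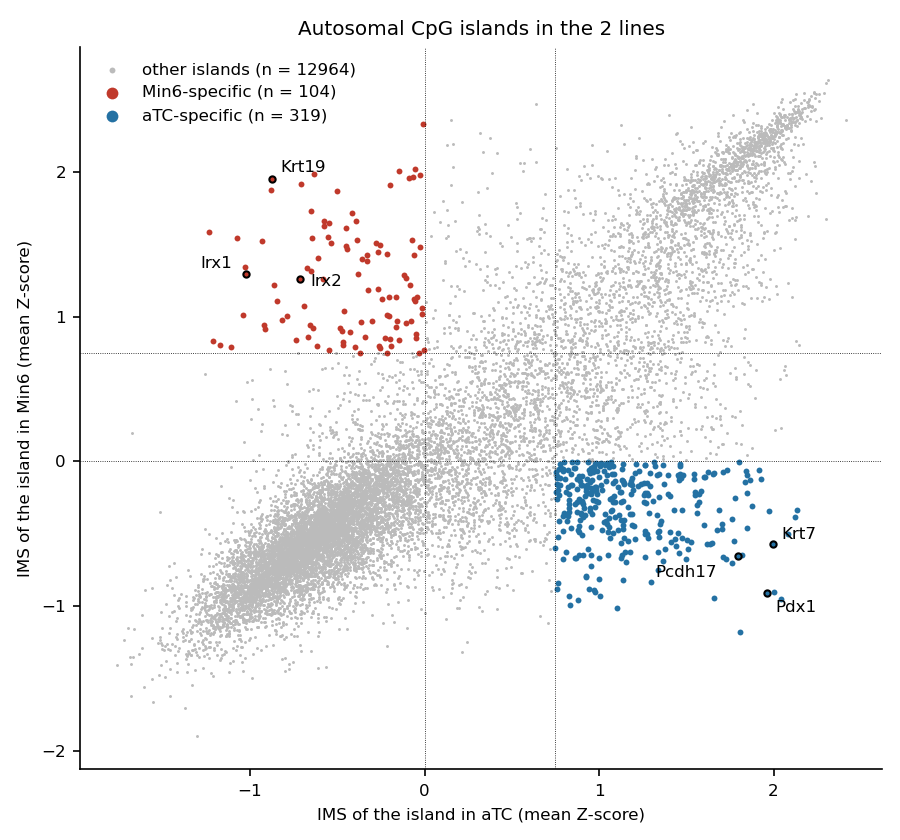
Each point is 1 of 13387 autosomal CpG islands, with its IMS (mean Z-score of its probes) in aTC on the x axis and in Min6 on the y axis, and dotted lines mark 0 and 0.75. Red points are the 104 Min6-specific and blue points the 319 aTC-specific islands, and most of the other islands lie along the diagonal.

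Of the islands, 104 (0.777%) were Min6-specific, that is above 0.75 in Min6 and below 0 in aTC, and 319 (2.38%) were aTC-specific. A difference of at least 1 was found at 216 islands (1.61%) higher in Min6 and 507 (3.79%) higher in aTC. The spread between arrays of the same tissue sets the scale for these counts. The 8 pairs of arrays of 1 adult tissue, each pair on 2 slides, had between 13 (colon) and 595 (brain) islands that differed by at least 1. Their median was 442.5, where the lines had 723. Only in colon (13) and pancreas (119) were both arrays of 1 design, with 97651 probes each. In the other tissues 1 array held 97651 probes and the other 88737, whereas both line arrays held 88737. The part of the design in the spread within a tissue was not tested. Opposite states (above 0.75 on one array and below 0 on the other) occurred at 2 to 177 islands of such a pair, with a median of 113, where the lines had 423. The SD of the difference was 0.468 between the lines and 0.255 to 0.481 within a tissue, so that the lines lay above all 8 replicate pairs in both counts but within their range in the overall scatter. Of the 10 pairs of different samples that also shared a slide, 2 had more opposite states than the lines, with 470 (pancreas and endoderm) and 492 (brain and embryoid bodies). Single islands of a line are therefore given below with their probes and with the SD between the 2 arrays of a tissue at the same island. At 93 of the 104 Min6-specific islands and 295 of the 319 aTC-specific ones, the difference exceeded the largest of the 8 differences between arrays of 1 tissue. This held for 14.4% of all islands. The line-specific islands differ by more than 0.75 by definition, so that their higher share follows in large part from the choice.

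Few line-specific islands were above 0.75 in ex vivo beta cells, as was the case for all islands. At the Min6-specific islands, ex vivo beta cells were below 0 at 57, between 0 and 0.75 at 37 and above 0.75 at 10. At the aTC-specific islands the counts were 214, 88 and 17. The share below 0 was thus 54.8% and 67.1%, against 61.6% of all islands. The share above 0.75 was 9.62% and 5.33%, against 12.1% of all islands. The mean IMS of the Min6-specific islands was 1.24 in Min6, -0.432 in aTC and 0.0467 in ex vivo beta cells. It was -0.110 ± 0.0691 over the adult arrays (SD, n = 16), -0.212 ± 0.0329 over the embryo arrays (SD, n = 5) and -0.151 and -0.153 on the 2 pancreas arrays. The mean IMS of the aTC-specific islands was -0.323 in Min6, 1.18 in aTC, -0.0915 in ex vivo beta cells, -0.0686 ± 0.0415 over the adult arrays (SD, n = 16) and -0.119 ± 0.0362 over the embryo arrays (SD, n = 5). Both sets thus lay nearer the mean of the array in these groups than in either line, and the islands had been chosen on the lines. All probes of the island differed in the same direction at 100 of the 104 Min6-specific and 303 of the 319 aTC-specific islands. The islands were chosen on the mean of these same probes, which favours such agreement, so that it is no separate support. By the array's annotation, 24.0% of the Min6-specific islands were called promoter, against 15.7% of the aTC-specific and 18.9% of all islands, and 56.7%, 61.1% and 61.7% lay inside a gene.

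The transcription factors of the islet were described first, with 28 of the 35 listed genes and 64 islands scored. Of these islands, 11 (17.2%) were at least 1 higher in Min6 and 9 (14.1%) at least 1 higher in aTC, against 1.61% and 3.79% of all islands, and the median difference was 0.142 against 0.0727. Pdx1, the factor needed for the pancreas to form and for the identity of beta cells, had 2 islands. The one that begins 12 bases past the start (chr5:148081691-148082315, 5 probes) had an IMS of -0.547 in Min6, 1.77 in aTC and -0.306 in ex vivo beta cells. The other, 4411 to 4786 bases past the start (chr5:148086087-148086512, 5 probes), had -0.911 in Min6, 1.96 in aTC and -0.973 in ex vivo beta cells. In both, Min6 lay with ex vivo beta cells, all 5 probes were higher in aTC, and the pancreas arrays were below 0, with -0.466 and -0.689 at the first and -0.470 and -0.0386 at the second. The differences of -2.32 and -2.87 were 10.5 and 5.55 times the SD between the 2 arrays of a tissue. Over the 31 arrays of other groups the highest IMS was 1.02 at the first and 1.38 at the second, both on retinoic acid treated ES cells, so that aTC was above all other arrays at both. The higher level in aTC was not limited to Pdx1 in this region. Its neighbours Gsx1 (0.674 in Min6, 1.34 in aTC, -0.371 in ex vivo beta cells) and Cdx2 at its start (0.107, 1.40 and -0.426) were higher in aTC too. Another island of Cdx2 was higher in Min6 (1.24, 0.447 and -0.0444).

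**Figure D2:**
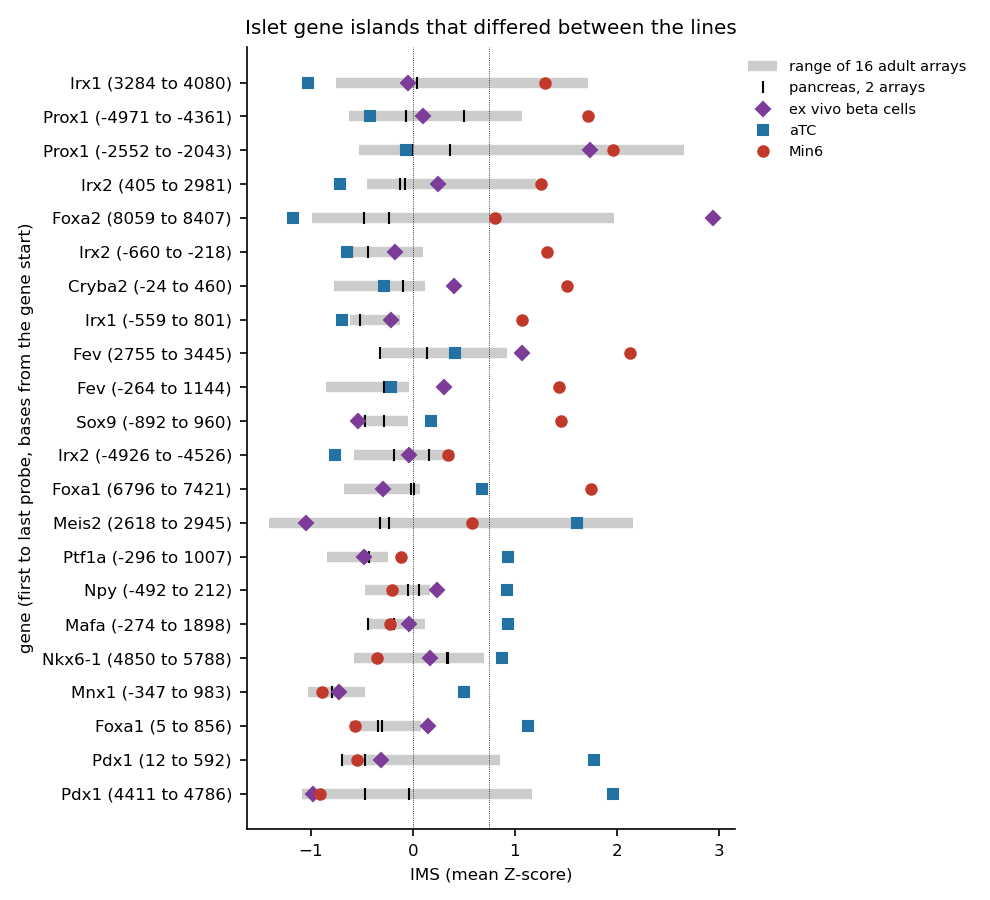
IMS (x axis, mean Z-score) of islands of islet transcription factor, alpha cell and beta cell genes that differed by at least 1 between the lines, with red circles for Min6, blue squares for aTC, purple diamonds for ex vivo beta cells, black ticks for the 2 pancreas arrays and a grey bar for the range of the 16 adult arrays. At Pdx1, Mafa and Mnx1 the blue square stands alone on the right, and at Fev, Cryba2 and the islands nearest the starts of Irx1, Irx2 and Sox9 the red circle lies beyond the grey bar, with the positions of the first and last probe from the gene start beside each name.

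Mafa, which activates the insulin gene, had 1 island over its start (chr15:75576425-75578648, 13 probes) with an IMS of -0.221 in Min6, 0.936 in aTC and -0.0331 in ex vivo beta cells. The difference of -1.16 was 10.2 times the SD between the arrays of a tissue, and 11 of the 13 probes were higher in aTC. Mnx1, a homeobox factor of the developing pancreas and of beta cells, had -0.885, 0.507 and -0.726 at the island over its start (chr5:29804005-29805379, 11 probes). aTC thus reached a level at Mnx1 that was above the 31 arrays of other groups, of which the highest was -0.353, but below the threshold of 0.75. Nkx6-1, which holds beta cells apart from the other islet cells, had -0.348 in Min6, 0.874 in aTC and 0.170 in ex vivo beta cells at an island 4850 to 5788 bases past its start (chr5:102087913-102088905), where 4 of 5 probes were higher in aTC. At the island over the start of Nkx6-1 itself, the IMS was -0.305, -0.0633 and 0.239, so that the difference was at the far end of the gene and not at its start. Ptf1a, which acts in pancreatic progenitors and acinar cells, had -0.119, 0.929 and -0.480 over its start, and its difference of -1.05 was found at 11 of 12 probes.

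On the alpha cell list most islands that differed by at least 1 were higher in Min6, at a few loci. Of 17 listed genes, 4 of them on the X chromosome, 9 had islands. Of their 15 islands, 9 (60.0%) were at least 1 higher in Min6 and 1 was higher in aTC, against 1.61% and 3.79% of all islands. The median difference of the list was 1.41. The list shares 7 islands, among them those of Irx1 and Irx2, with the transcription factors above, and of the other 8 islands 3 were at least 1 higher in Min6 and 0 in aTC. These 3 were islands of Fev and Cryba2, which are neighbours on chromosome 1. The 5 islands of Irx1 and Irx2 are also neighbours, so that the 9 islands are not separate loci. Irx1, an Iroquois homeobox factor found in alpha cells and not in beta cells of the mouse, had an IMS of 1.07 in Min6, -0.693 in aTC and -0.215 in ex vivo beta cells at the island over its start (chr13:72100111-72101517). All 11 of its probes were higher in Min6, the difference of 1.77 was 12.9 times the SD between the arrays of a tissue, and the highest of the 31 arrays of other groups was 0.287. Its second island, 3284 to 4080 bases past the start, had 1.30, -1.02 and -0.0506, and there the 2 colon arrays were methylated too, at 1.08 and 1.72. Irx2, its neighbour on chromosome 13, had 1.32, -0.648 and -0.171 just before its start (chr13:72765743-72766229, 4 probes), and 1.26, -0.716 and 0.245 at the large island that begins 405 bases past it (chr13:72766808-72769540, 19 probes), where all 19 probes were higher in Min6 and 1 colon array reached 1.20. The third island of Irx2, at -4926 to -4526 from the start, had 0.347, -0.759 and -0.0358. These 5 islands were consecutive along chromosome 13 (chr13:72096834-72769540), and ex vivo beta cells lay between the lines at all of them and nearer to aTC at 4. Over the whole list 9 islands were above 0.75 in Min6, 3 in aTC and 1 in ex vivo beta cells, so that most of the methylation of these genes in Min6 was not found in ex vivo beta cells. Of all 13387 islands, 2663, 3133 and 1624 were above 0.75, so that ex vivo beta cells had the lowest count there too.

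Fev, an ETS factor of islet progenitors and serotonin neurons that was placed on the alpha cell list, had an IMS of 1.43 in Min6, -0.212 in aTC and 0.310 in ex vivo beta cells at the island over its start (chr1:74930821-74932279), with all 12 probes higher in Min6. Cryba2, which encodes a lens crystallin and is on the same list, lies next to it and had 1.51, -0.280 and 0.406 (chr1:74939227-74939755, 5 probes). Wnt10a, a secreted signalling protein whose island lies close by on the same chromosome (chr1:74849701-74850232), went the other way, with -0.542 in Min6, 1.51 in aTC and 0.136 in ex vivo beta cells. Neighbouring genes thus had opposite states in the lines.

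Foxa1 held islands of both directions. Foxa1, a pioneer factor of endoderm, had -0.566, 1.13 and 0.148 at its start and 1.75, 0.681 and -0.288 at an island 6796 to 7421 bases past it. All 6 probes at the start were higher in aTC and all 7 of the other island higher in Min6, so that the order of the lines depended on the island.

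**Figure D3:**
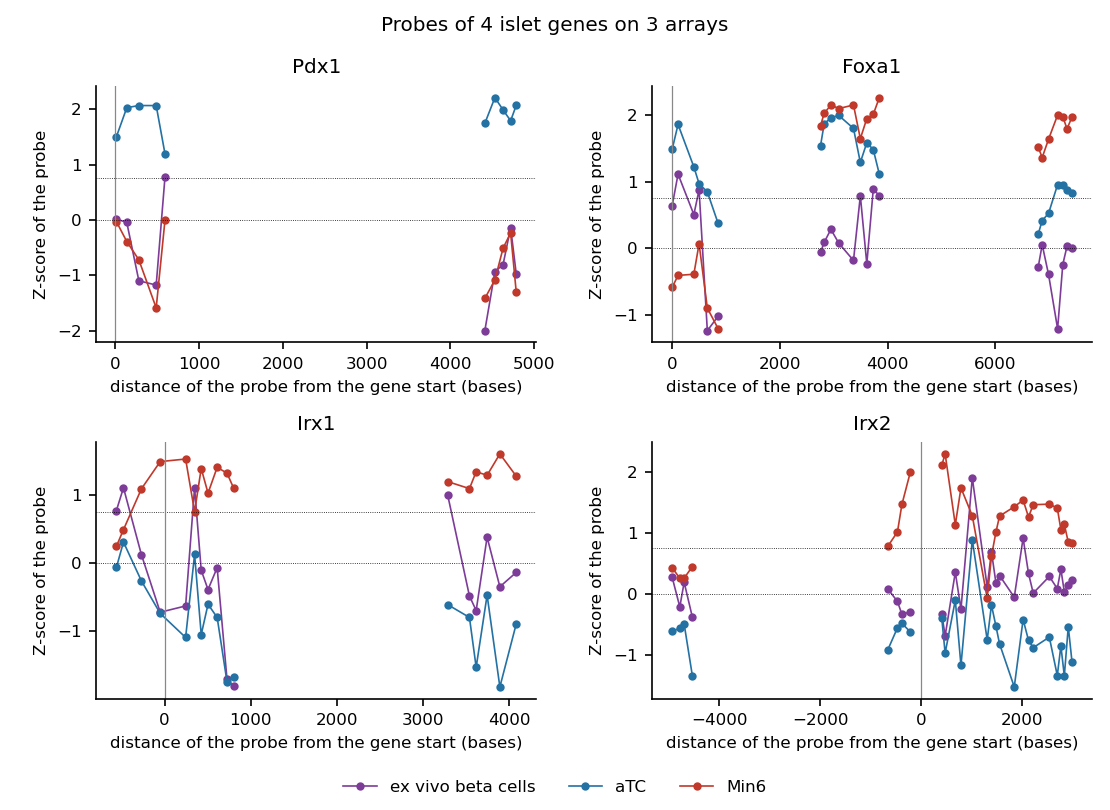
Z-score of each probe (y axis) against its distance from the gene start in bases (x axis) for Pdx1, Foxa1, Irx1 and Irx2, with lines joining the probes of 1 island, red for Min6, blue for aTC and purple for ex vivo beta cells, and dotted lines at 0 and 0.75. At Pdx1 the blue points lie above the red and purple ones at all 10 probes, whereas at Irx1 and Irx2 the red points lie above the blue ones, and at Foxa1 the order turns between the first and the last island, with both lines high at the island between them.

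Further islet factors differed between the lines, most of them at islands away from their starts. Prox1, a homeobox factor of pancreatic progenitors, was unmethylated in both lines next to its start and had 1.72 in Min6, -0.417 in aTC and 0.0987 in ex vivo beta cells at -4971 to -4361 from it. Its island at -2552 to -2043 also differed, by 2.03, which was only 1.66 times the SD between the arrays of a tissue. Foxa2, another pioneer factor of endoderm, had 0.801, -1.17 and 2.94 at an island 8059 to 8407 bases past its start, where ex vivo beta cells were far above both lines. Sox9, a factor of ducts and progenitors, had 1.46, 0.182 and -0.536 over its start, whereas both lines were methylated at its next island, with 1.62, 1.82 and 0.0385. With gaps of up to 1 kb, which join islands, the difference at the start of Sox9 fell from 1.27 to 0.64. Meis2 had 0.577, 1.61 and -1.05. The islands of Neurod1, Pax6 and Isl1 were below 0 in both lines, as were 3 of the 4 islands of Nkx2-2, and the largest difference at any of these 4 genes, chosen after their values were seen, was 0.649.

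Genes for the products and machinery of beta cells were on a list of their own. Of 30 listed genes, 11 had islands, and of their 14 islands 0 were at least 1 higher in Min6 and 1 (7.14%) was at least 1 higher in aTC, numbers too small to read against the 1.61% and 3.79% of all islands. The 1 island was that of Npy, with -0.207 in Min6, 0.926 in aTC and 0.237 in ex vivo beta cells. Of the 8 markers of beta cells that were listed, 3 had islands (Mafa, Pdx1 and Nkx6-1), and of the 7 markers of alpha cells 3 did, among them Irx1 and Irx2. Ins1, Ins2 and Gcg are not among the genes of these islands, and expression was not measured, so that the labels of the lines could be set against DNA methylation of the factors alone.

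Outside the islet lists, the largest difference in favour of Min6 was at Krt19, the keratin of pancreatic ducts. Its island, 80 to 641 bases past the start (chr11:100006570-100007179), had an IMS of 1.95 in Min6, -0.874 in aTC and 0.642 in ex vivo beta cells, all 6 probes were higher in Min6, and the difference of 2.83 was 19.2 times the SD between the arrays of a tissue. The 16 adult arrays lay between -1.06 and -0.0819, so that Min6 was far above every tissue and ex vivo beta cells lay above them too. Krt7, another keratin of duct and simple epithelia, had the opposite state, and there Min6 was the exception. Its island over the start (chr15:101242576-101243346, 8 probes) had 2.00 in aTC and 1.00 to 3.45 on all 31 arrays of other groups, including the 5 embryos at 1.77 to 2.23, but -0.568 in Min6 and -0.286 in ex vivo beta cells. Krt7 was thus an island at which Min6 shared an unmethylated state with ex vivo beta cells against every other array of the series. Krt18 and Cdh1, further genes of simple epithelia, were higher in aTC, with differences of -1.03 and -1.33, and Krt18 was chosen after its values were seen.

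The other Min6-specific islands with the largest differences were those of Tmem179, 2810410L24Rik, Higd1a, Tmem198, Tfap2a, Ppp1r9a, Slc25a33, 6330403K07Rik, Zfp217 and Snapc5, with differences from 2.62 down to 2.20. Higd1a, a mitochondrial protein of the response to low oxygen, was methylated in Min6 at 1.98 and lay at -0.631 in aTC and -0.00166 in ex vivo beta cells over its start, with all 9 probes higher in Min6. Slc25a33, a mitochondrial carrier of pyrimidine nucleotides, had 1.87, -0.499 and -0.0700, also with all 9 probes. Tfap2a, a factor of ectoderm and neural crest, had 1.73, -0.651 and -0.945. 6330403K07Rik was above aTC by 2.34, which was 2.29 times the SD between the arrays of a tissue, since its adult range ran from -0.851 to 2.19. With gaps of up to 1 kb the difference fell from 2.62 to 1.29 at 2810410L24Rik and from 2.45 to 1.43 at Tmem198.

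The aTC-specific islands with the largest differences, beside those of Pdx1 and Krt7, were those of BC057022, Nova2, P2ry1, Ptger4, Kcnn2, Btbd17, Cdh7, Pcdh17, Pcdh10 and Fam83g, with differences from -2.99 to -2.37. BC057022 had -0.951 in Min6, 2.04 in aTC and -1.19 in ex vivo beta cells, but its adult arrays ran from -0.640 to 2.08 and the difference was 3.28 times the SD between the arrays of a tissue. Nova2, a splicing factor of neurons, was above 0.75 in ex vivo beta cells too (1.09). Pcdh17 had -0.656 in Min6, 1.80 in aTC and -0.672 in ex vivo beta cells (chr14:84845693-84847917), with all 21 probes higher in aTC, and Pcdh10 had -0.675, 1.73 and -0.661 (chr3:45183484-45185637), with all 17. At Pcdh10 the islands before the start were unmethylated in both lines (-0.471 and -0.710 at one, -1.05 and -0.891 at the other), so that the difference began within the gene. Cdh7 had -0.701, 1.76 and -0.590. Among receptors, P2ry1, a receptor for ADP, had -0.503, 2.08 and -0.217, and Ptger4, a receptor for prostaglandin E2, had -0.381, 2.12 and -0.542, a difference that became -1.5 with gaps of up to 1 kb. Fam83g differed from these in that its adult range, 0.270 to 1.92, was above the value of -0.663 in Min6 and included that of 1.71 in aTC.

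The remaining gene lists are described by their counts. Ion channels and transmitter receptors had 136 islands, of which 16 (11.8%) were at least 1 higher in aTC and 3 (2.21%) in Min6, with a median difference of -0.123. Axon guidance and ephrin genes had 95 islands, of which 11 (11.6%) were higher in aTC and 2 (2.11%) in Min6, with a median of -0.135. In both lists the share higher in aTC was above the 3.79% of all islands, and examples were Adra2a, the alpha-2A adrenergic receptor, with -0.636 in Min6, 1.46 in aTC and -0.368 in ex vivo beta cells, Kcnq3 (-0.109, 1.61 and -0.326), Epha5 (-0.897, 0.723 and -0.412) and Sema3c (-0.818, 0.716 and -0.605). Of the channel genes higher in Min6, Adrb3 had 1.73, 0.129 and -1.03 and Kcna1 had 1.29, -0.119 and -1.21. Homeobox genes outside the Hox clusters had 209 islands, 16 (7.66%) higher in Min6 and 10 (4.78%) higher in aTC. Among them Lhx6, Gbx2, Nkx3-2 and Six3 were higher in Min6 and Shox2, Cdx2 and Lhx1 in aTC. Shox2, a factor of limb and heart development, had -0.300 in Min6, 1.56 in aTC and -0.324 in ex vivo beta cells.

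**Figure D4:**
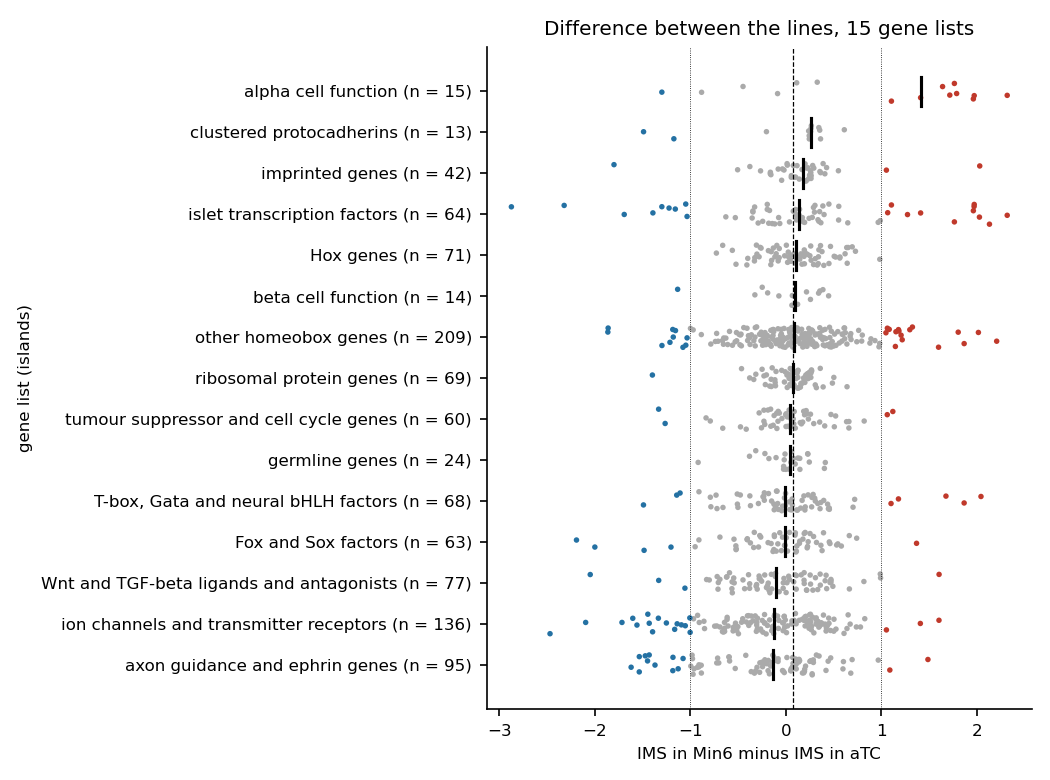
Difference in IMS between Min6 and aTC (x axis) for every island of 15 gene lists (y axis), with 1 point an island, a black bar at the median of the list, a dashed line at the median of all islands (0.0727) and dotted lines at -1 and 1. Red points are at least 1 higher in Min6 and blue points at least 1 higher in aTC, and the alpha cell list has its median at 1.41 while the other medians lie between -0.135 and 0.260.

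The other lists are given with 1.61% of all islands at least 1 higher in Min6 and 3.79% in aTC as background. Of all 13387 islands, 2663 were above 0.75 in Min6, 3133 in aTC and 1624 in ex vivo beta cells. Both lines were above 0.75 at 16.7% of all islands and below 0 at 57.5%. The 71 islands of Hox genes held 0 that differed by at least 1 in either direction, although 22 were above 0.75 in Min6, 23 in aTC and 1 in ex vivo beta cells, and 18 were above 0.75 in both lines. Germline genes had 0 of 24, with 20 above 0.75 in both lines, and ribosomal protein genes 1 of 69 (Rps12, higher in aTC at an island far upstream), with 64 below 0 in both lines. Fox and Sox factors had 1 of 63 (1.59%) higher in Min6 (an island named for both Dusp15 and Foxs1) and 4 (6.35%) higher in aTC (Foxp4, Foxf1, Foxf2 and Sox11). T-box, Gata and neural bHLH factors had 5 of 68 (7.35%) higher in Min6, among them Sim1 (0.831 in Min6, -1.21 in aTC) and Gata2 (1.29 and -0.384), beside Neurog1, and 3 (4.41%) higher in aTC, of which Gata3 had 0.00704 and 1.50, beside Twist2 and Bhlhe22. Wnt and TGF-beta genes had 1 of 77 (1.30%) higher in Min6 (Wnt3) and 3 (3.90%) higher in aTC, among them Wnt10a and Tgfb1. Imprinted genes had 2 of 42 (4.76%) higher in Min6 and 1 (2.38%) higher in aTC. Igf2, an imprinted growth factor, was at 2.19 in Min6, 0.162 in aTC and 0.225 in ex vivo beta cells at an island at -4857 to -4394 from its start, Mkrn3 was 1.05 higher in Min6, and Inpp5f had -0.228, 1.57 and -0.000552. Tumour suppressor and cell cycle genes had 2 of 60 (3.33%) in each direction, with Mgmt and Rassf2 higher in Min6 and Cdh1 and Ccnd2 higher in aTC, and clustered protocadherins had 0 of 13 higher in Min6 and 2 (15.4%) higher in aTC (Pcdha12 and Pcdhac2).

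Of the 2234 islands above 0.75 in both lines, ex vivo beta cells were above 0.75 at 1318 (59.0%) and below 0 at 382 (17.1%). Of all islands they were below 0 at 61.6%. They were also below 0 at 57 of the 104 Min6-specific islands and at 114 of 325 above 0.75 in Min6 and between 0 and 0.75 in aTC. The same held for 214 of the 319 aTC-specific islands and 246 of 580 above 0.75 in aTC and between 0 and 0.75 in Min6. Among the 4456 islands below 0 on all 16 adult arrays, 217 (4.87%) were above 0.75 in Min6, 315 (7.07%) in aTC and 6 (0.135%) in ex vivo beta cells. Both lines were above 0.75 at 140 of them, Min6 but not aTC at 77 and aTC but not Min6 at 175. The mean difference between the lines over the 4456 islands was 0.000622, where the 8 tissue pairs ran from -0.197 to 0.0905. Each array is centred on its own mean, which in large part sets this value, and with the median and MAD in place of mean and SD it was -0.0923. The SD of the log10 ratio was lower in ex vivo beta cells (0.339) than in the lines, and its part in these counts was not tested. Of the 382 islands, the highest were Lhx2, Cdkn2a, Pou3f3, Slc2a12, Foxd3 and Kcnip3. Cdkn2a, whose products p16 and p19 restrain the cell cycle, had 2.44 in Min6, 2.14 in aTC and -1.65 in ex vivo beta cells at chr4:88922488-88922864 (3 probes). The array places this island 5254 to 5581 bases past a start of the gene, and the 16 adult arrays lay between -1.47 and -0.172. Another island of Cdkn2a (chr4:88940152-88941483) lies over a different annotated start. There Min6, aTC and ex vivo beta cells were all below 0, with -0.726, -0.923 and -0.216. Foxd3, a factor of pluripotent cells and neural crest, had 2.13, 2.03 and -0.475 over 16 probes.

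Islands methylated in all adult tissues were unmethylated in Min6 more often than in aTC, and whether methylation had been lost was not tested. Of the 995 islands above 0.75 on all 16 adult arrays, 22 (2.21%) were below 0 in Min6, 3 (0.302%) in aTC and 3 in ex vivo beta cells, and 14 were aTC-specific while 0 were Min6-specific. Krt7 was the largest difference among them. Gas6, a ligand of TAM receptors, had -1.01 in Min6 and 1.94 in ex vivo beta cells, and differed by -2.11 between the lines. Ephb4, an ephrin receptor, had -0.381, 1.09 and 2.74. At both genes Min6 was low and ex vivo beta cells were as high as adult tissue, unlike at Krt7. Of the 22 islands, 2 were also below 0 in ex vivo beta cells and 2 in aTC. Gas6 was chosen after its values were seen.

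Islands that differed were in places neighbours. There were 10 runs of at least 4 consecutive islands that differed by 0.5 or more in the same direction, 6 higher in Min6 and 4 higher in aTC. Beside that of Irx1 and Irx2, the run around Six3 and Six2 held 8 islands (chr17:85885872-86084925) with mean IMS of 1.38 in Min6, 0.201 in aTC and -0.151 in ex vivo beta cells, although the islands at the start of Six2 did not differ by more than 0.166. Six3 and Six2 are homeobox factors of forebrain and kidney. The run of Ano1, Fgf3 and Fgf4 held 4 islands (chr7:151864396-152047990) with 1.14, -0.178 and -0.249. Among the runs higher in aTC, 8 islands from Gna13 to Abca5 (chr11:109223851-110199224) had -0.630 in Min6, 0.249 in aTC and -0.378 in ex vivo beta cells, a difference between low levels. The genes of these runs were chosen after their values were seen.

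The input DNA itself differed between the lines by whole chromosomes and parts of them. Relative to the mean of the 16 adult arrays, the median log2 input signal of aTC was 0.42 on chromosome 1, 0.51 on chromosome 6, -0.41 on chromosome 9, -0.19 on chromosome 11 and -0.64 on chromosome 14, and that of Min6 was -0.47 on chromosome 13. On the other 13 autosomes the lines lay between -0.01 and 0.08, and ex vivo beta cells lay between -0.06 and 0.01 on all autosomes. Within chromosomes, windows of 10 Mb placed the lower signal of aTC at chr9:30000001-100000000 (-0.69 to -0.63) and chr11:40000001-90000000 (-0.71 to -0.38). In Min6 such windows gave further stretches at chr9:100000001-130000000 (-0.68 to -0.47), chr13:1-80000000 (-0.72 to -0.61), chr18:1-10000000 (-0.40) and chr3:60000001-70000000 (-0.49). P2ry1 and Shox2 lie in the last of these, where Min6 had less input. The IMS moved with it to a small extent. The mean difference in IMS, Min6 minus aTC, was 0.0601 on chromosome 1, 0.0940 on chromosome 6, -0.0488 on chromosome 9, -0.0363 on chromosome 11, 0.135 on chromosome 13 and -0.133 on chromosome 14, against -0.0317 to 0.0458 on the other 13 autosomes. The line with less input thus had the higher mean IMS on all 6 of these chromosomes. Irx1 and Irx2, with differences of 1.11 to 2.32, lie in the part of chromosome 13 with less input in Min6. Tfap2a lies there too, and Higd1a lies in the part of chromosome 9 with less input in Min6. Snapc5, also higher in Min6, lies in the part of chromosome 9 with less input in aTC. Pdx1 and Mafa lie on chromosomes 5 and 15, where the input of both lines was within the range of the adult arrays. Fev and Cryba2 lie on chromosome 1, where aTC had more input, and Pcdh17 lies on chromosome 14, where it had less. Without these 6 chromosomes 62 Min6-specific and 238 aTC-specific islands were left of 9100, which is 0.681% and 2.62%. The stretches of chromosomes 3 and 18 with less input in Min6 were kept in that count. The part of the input in the difference of single islands was not tested.

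**Figure D5:**
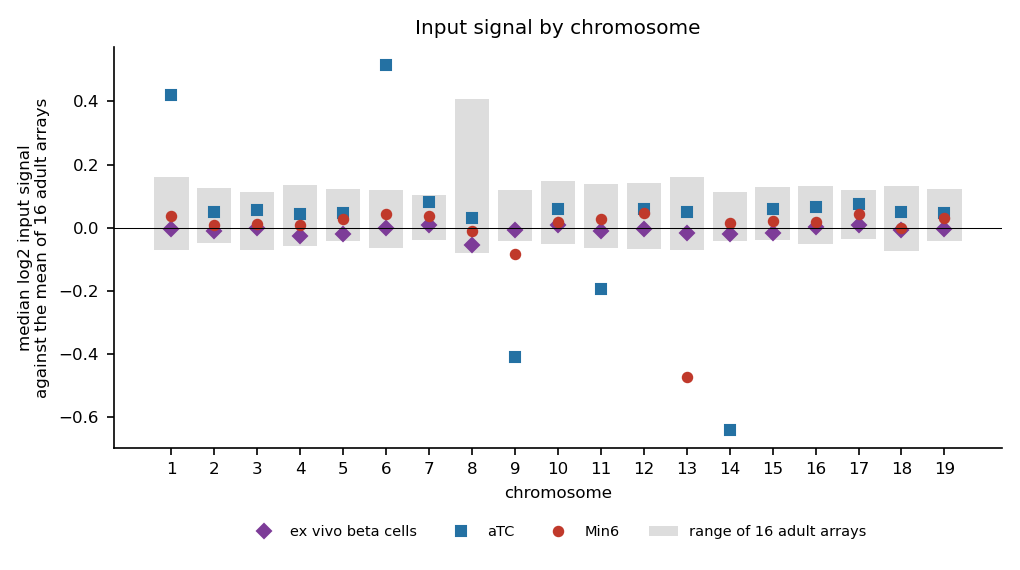
Median log2 input signal of the probes of each autosome (y axis) relative to the mean of the 16 adult arrays, with red circles for Min6, blue squares for aTC, purple diamonds for ex vivo beta cells and grey bars for the range of the adult arrays. aTC lies above the bars on chromosomes 1 and 6 and below them on 9, 11 and 14, Min6 lies furthest below on 13, and the tall bar on chromosome 8 comes from 1 adult array at 0.41.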

How the data were processed

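The arrays were made by mDIP from fragmented mouse DNA. Per the file headers, the scans of the line arrays were quantified with Agilent Feature Extraction 10.9.1.1, which subtracted local background and applied a linear dye normalization, and the authors deposited spot and background intensity in both channels and the log10 ratio of bound over input. The authors also deposited a table of Z-scores, a score per probe that their methods adjusted for probe Tm. That step was left out here, since probe sequences were not used.

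On the line arrays, Z-scores were computed from the log10 ratios of 88737 probes after control spots and outlier flags were left out (10 spots on Min6, 2 on aTC). Arrays of the design with 97651 probes were scaled on all of their own probes, and the probes of the line arrays were then kept. Of the 88737 probes 85850 have autosomal positions, and islands have 3 to 40 probes (median 5). Probes were matched between arrays by name, and gene names come from the annotation of another array of the series: of 11115 names, 7952 are current in a GRCm38.p6 table, 1957 were matched through its synonyms on the same chromosome, and 1206 kept the old name. Python 3.11.15, pandas 2.3.3 and, for background correction, limma 3.58.1 were used, and scoring was checked on simulated data. Precision is limited by the number of arrays, and the SD between the 2 arrays of each of 8 tissues stands in for replicates of the lines. The sources do not state that these are separate animals. In the tissues other than colon and pancreas the 2 arrays also differed in design, unlike the line arrays.

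The members and gene lists were chosen with earlier results of these data known. Named islands are, 1 a gene, the 12 largest differences in each direction among line-specific islands whose probes all moved together, up to 4 in each direction of each list at a difference of at least 1, all such islands of islet genes, and the 6 highest in both lines among those below 0 in ex vivo beta cells. Standardisation, scale, background correction, source table, dim probes, island summary, probe minimum, gap and thresholds were varied. Results for a few genes that this rule names are not reported here.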

Additional observations from a re-analysis of the deposited data

How the results depend on the processing

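The counts of line-specific islands and of islands that differed by at least 1 stayed within 1.5 times under the median and MAD, autosomal standardisation, the undivided log2 scale, the deposited table, the filter on dim input, the median of the probes, other gaps between islands, and normexp on median signals, which was added after the data were seen. They moved where fewer islands or other thresholds were used. With at least 5 probes, which left 8725 islands, the counts were 68 Min6-specific, 196 aTC-specific, 130 higher in Min6 and 309 higher in aTC. Thresholds above 0.5 and below 0 gave 164 Min6-specific islands, above 1 and below 0 gave 67 and, for aTC, 195, and above 0.75 and below -0.25 gave 67 and 167. A difference of 0.75 was reached by 381 islands in Min6 and 832 in aTC, and one of 1.5 by 89 and 161. Without the 6 chromosomes whose input differed, also added later, 62 were Min6-specific and 135 at least 1 higher in Min6, of 9100. In each of these settings aTC had the higher count. The mean difference over constitutively unmethylated islands was -0.0923 with the median and MAD, and with either replicate of the tissues left out it ran from -0.00180 to 0.00155. Of 903 values of the 96 named islands, 795 stayed within the replicate SD, 105 moved and 3 changed sign, all at islands methylated in both lines: Slc2a12 (-0.0154) and Foxd3 (-0.0202) on the log2 scale and Kcnip3 (0.0524) with the median and MAD. Among named islands that differed by at least 1, the wider gap moved by over 1.5 times 2810410L24Rik (1.29), Tmem198 (1.43), Gbx2 (0.98), Nkx3-2 (1.19), Gata2 (0.78), Sox9 (0.64), Cdx2 (-0.48), Gata3 (-0.26) and Ptger4 (-1.5). Normexp on median signals did so for the upstream island of Irx2 (0.69), Ccnd2 (-0.78), Sema3c (-0.73) and Nrp1 (-0.94), the median of the probes for Nrp1 (-0.99), the deposited table for Nrp2 (0.71), and the filter on dim input for Nkx6-1 (-2.01). The cause was not tested. The planned normexp on mean signals was not run, since the line arrays give median spot signals, nor was the Tm adjustment. No paired analysis was possible because each line has 1 array and no test was made.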
